A study of Homo sapiens with 12 samples.

Results

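The human Schlafen genes lie in 1 cluster on chromosome 17 and comprise SLFN5, SLFN11, SLFN12, SLFN12L, SLFN13 and SLFN14. They were taken by symbol from both count tables and are 6 of the 61163 genes listed there. SLFN11 was selected on its counts, which are high in HEK UL1 KO and close to 0 in HEK WT, so its difference between the genotypes is given as a description with no test. The other members entered by symbol, and their differences are given with the test of each. By the sample titles, all 12 libraries came from HEK293T, an immortalised line derived from human embryonic kidney. They were made from total RNA without rRNA depletion. HEK WT is the wild-type line, which the titles give as HEK293T and the study's methods as wild-type HEK293. HEK UL1 KO is a HEK293T line in which CRISPR-Cas9 with guides to exons 2 and 3 was used to delete part of HNRNPUL1. This is the gene of the RNA-binding protein hnRNP UL1. Each line was fractionated into a nucleolar (NO) and a cytoplasmic-nuclear (CN) part, which gave 4 groups of 3 libraries, described as biological triplicates. There is 1 knockout line, and whether it is 1 clone is not given in the sources used here, so the deletion and any other difference between both lines cannot be told apart.

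Schlafen proteins are found in mammals and many of them are induced by interferon. SLFN11 is recruited to stalled replication forks through RPA, the single-strand DNA binding complex, blocks further replication there and cleaves transfer RNAs, and its level is one of the best known correlates of sensitivity to DNA-damaging drugs. SLFN12, SLFN13 and SLFN14 are also known as RNases of tRNA or ribosome-bound RNA, SLFN5 is a nuclear protein that acts on transcription, and little is known of SLFN12L. SLFN11 is commonly silenced in cultured cells by promoter methylation or repressive chromatin, and factors of the ETS family, FLI1 among them, are known to act on its promoter.

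The promoters of SLFN11, SLFN12 and SLFN12L are printed because these neighbouring genes differed in how far their counts moved between both lines. Each is the 250 bases before the RefSeq gene start (GRCh38.p14, minus strand), 5′ to 3′, and these 3 members had an entry among the RefSeq promoters used. Capitals mark matches to CCGGAA on either strand (an ETS core), to TATATAA on the given strand (a TATA box) and to a pair of GAAA with 2 bases between them on either strand (an interferon response element core). No match overlapped another. SLFN11 spans chr17:35373622-35373871, SLFN12 chr17:35433175-35433424 and SLFN12L chr17:35537679-35537928.
SLFN11: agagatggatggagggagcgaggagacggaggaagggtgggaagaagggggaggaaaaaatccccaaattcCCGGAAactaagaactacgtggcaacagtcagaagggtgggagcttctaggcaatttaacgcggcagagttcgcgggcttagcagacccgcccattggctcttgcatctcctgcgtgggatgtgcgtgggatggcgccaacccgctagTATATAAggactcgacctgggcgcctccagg
SLFN12: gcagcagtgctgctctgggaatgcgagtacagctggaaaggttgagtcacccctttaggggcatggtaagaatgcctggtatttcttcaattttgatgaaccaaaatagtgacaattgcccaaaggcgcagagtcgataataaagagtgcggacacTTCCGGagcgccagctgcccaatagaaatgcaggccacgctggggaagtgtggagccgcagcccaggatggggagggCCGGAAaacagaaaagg
SLFN12L: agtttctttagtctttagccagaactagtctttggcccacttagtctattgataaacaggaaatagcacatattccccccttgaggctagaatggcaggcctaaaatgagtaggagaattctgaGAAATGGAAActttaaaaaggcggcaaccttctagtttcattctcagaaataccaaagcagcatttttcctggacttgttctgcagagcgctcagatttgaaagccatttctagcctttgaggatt
The SLFN11 window held 1 ETS core, from 179 to 174 bases before the start, and 1 TATA box, from 31 to 25 bases before it. SLFN12 held 2 ETS cores, and SLFN12L held 1 interferon response core and no ETS core. Of 35114 promoter windows of the same length, 14.5% held the ETS core, 1.66% the TATA box and 3.02% the interferon response core. The SLFN11 window had 15 CpG sites, against 9 in SLFN12 and 2 in SLFN12L, and its ratio of observed to expected CpG was 0.766, where the median of all windows was 0.558. These matches describe the letters only.

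Library totals ran from 37141666 to 83019079 counts in NO and from 54349399 to 104040073 in CN, and rRNA genes took 55.3 to 65.1% of the counts in NO and 73.9 to 78.7% in CN. The 7 kidney and epithelial markers examined (PAX2, KRT8, KRT18 and VIM among them) had counts in every library, and their summed level in CN was 45.5 to 52.4 CPM (counts scaled to the library) in HEK WT and 22.5 to 24.0 in HEK UL1 KO, a gap whose part in the results was not tested. Summed CN levels of other cell types' markers were at most 0.456 CPM for blood, 0.777 for endothelium, 0.0844 for liver and 1.03 for fibroblasts. In NO they reached 2.53, 4.80, 0.321 and 1.95 CPM in the same order, and the kidney markers summed to 40.7 to 60.6 CPM in HEK WT and 25.1 to 29.8 in HEK UL1 KO. HNRNPUL1 counted 1495, 1290 and 1422 in the CN libraries of HEK WT and 347, 360 and 288 in those of HEK UL1 KO. In NO it counted 594, 697 and 551 in HEK WT and 453, 164 and 152 in HEK UL1 KO. On the log2 scale it fell by 1.83 in CN (SE 0.0828, adjusted p = 2.12e-07) and by 2.00 in NO (SE 0.323, adjusted p = 0.00649), both by edgeR's quasi-likelihood test, so the labels and the targeted gene went the same way. A pair of HEK WT libraries stood apart. NO replicate 3 had a TMM scaling factor of 1.40, where the other HEK WT NO libraries had 0.690 and 0.622, and CN replicate 3 had 0.760, where the other CN libraries had 1.01 to 1.09.

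SLFN11 was the Schlafen gene with the widest gap between both lines. In CN it counted 5, 5 and 1 in HEK WT and 797, 1020 and 675 in HEK UL1 KO. The groups lay far apart, with every HEK WT library close to 0. As TMM-normalised levels these were 0.0440 ± 0.0271 CPM in HEK WT and 11.96 ± 1.43 CPM in HEK UL1 KO (SD, n = 3 each). The ratio of the summed counts, 2492 against 11, was 270-fold after scaling, with a 95% interval of 150 to 541 that covers counting error only. In NO the counts were 14, 6 and 50 in HEK WT and 989, 334 and 475 in HEK UL1 KO. These groups did not overlap either, and the highest HEK WT value was replicate 3, the library that stood apart. Here the level was 0.463 ± 0.341 CPM in HEK WT and 9.31 ± 1.67 CPM in HEK UL1 KO (SD, n = 3 each), and the ratio of 1798 to 70 summed counts was 17.1-fold (interval 13.5 to 22.1, counting error only). The log2 differences were 8.02 in CN and 4.24 in NO, and the latter was 5.04 without HEK WT NO replicate 3. In these bulk libraries, more cells with SLFN11 RNA and more SLFN11 RNA per cell cannot be told apart. LOC105371933, a lncRNA that overlaps the SLFN11 start, was at 0 in all 3 HEK WT CN libraries and at most 0.135 CPM elsewhere, and whether the counting used strand is not given in the sources used here.

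**Figure D1:**
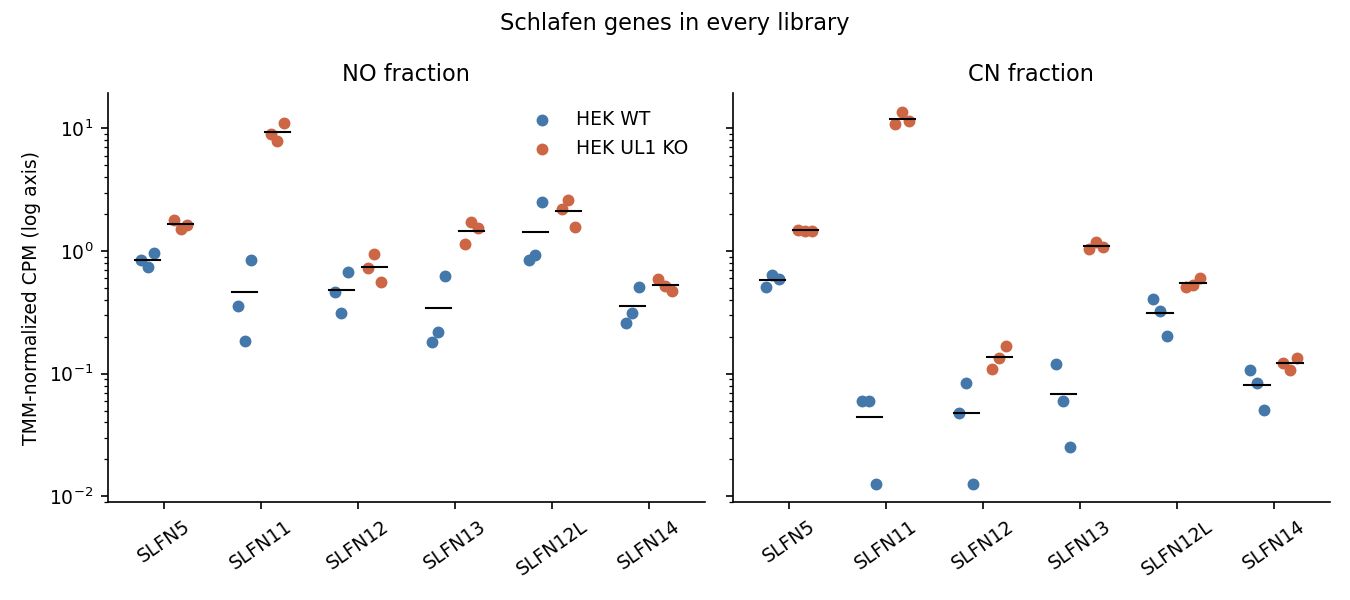
TMM-normalised CPM (log axis) of the 6 Schlafen genes in each library of the NO (left) and CN (right) fraction, in chromosome order, with HEK WT in blue, HEK UL1 KO in orange and a black line at each group mean. SLFN11 in HEK UL1 KO reaches 7.86 to 11.1 CPM in NO and 10.9 to 13.6 CPM in CN, above every other member. Each panel was scaled within its fraction, so levels in NO and CN are not on the same scale.

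The share of the cluster's counts that fell on SLFN11 rests on the counts by which SLFN11 was selected. It is given as a description and adds no separate observation. All 6 genes together counted 71 to 105 per library in CN of HEK WT and 880 to 1277 in HEK UL1 KO. SLFN11 took 4.76, 4.81 and 1.41% of these in HEK WT and 77.0, 79.9 and 76.7% in HEK UL1 KO. For the HEK WT library with a single SLFN11 count, the exact binomial 95% interval of the share was 0.0357 to 7.60%. In NO the share was 12.2, 6.90 and 13.8% in HEK WT and 58.0, 51.9 and 65.8% in HEK UL1 KO. Per length of the annotated transcript, SLFN11 in CN of HEK UL1 KO stood at 2.33 ± 0.279 CPM per kb (SD, n = 3), above SLFN5 at 0.139 ± 0.000548 and SLFN13 at 0.131 ± 0.00901 CPM per kb, a pair that did not differ beyond the spread. In CN of HEK WT the highest level per length was that of SLFN5 (0.0549 ± 0.00596 CPM per kb), followed by SLFN12L (0.0234 ± 0.00767) and SLFN12 (0.0191 ± 0.0142), whose spreads overlapped, while SLFN11 stood at 0.00855 ± 0.00528. In NO of HEK WT, SLFN12 had 0.192 ± 0.0732 CPM per kb, SLFN12L 0.108 ± 0.0703, SLFN11 0.0901 ± 0.0663 and SLFN5 0.0806 ± 0.0104, and neighbours in this order did not differ beyond their spread. In NO of HEK UL1 KO, SLFN11 came first with 1.81 ± 0.326 CPM per kb and SLFN12 next with 0.297 ± 0.0757, while SLFN13, SLFN12L and SLFN5, at 0.175 ± 0.0356, 0.161 ± 0.0389 and 0.156 ± 0.0137, did not differ beyond their spread, and SLFN14 was lowest at 0.0736 ± 0.00891 (SD, n = 3).

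SLFN5 was the other member with a clear rise in CN. It counted 43, 53 and 47 in HEK WT and 108, 110 and 87 in HEK UL1 KO, and the groups did not overlap. The level went from 0.580 ± 0.0630 to 1.47 ± 0.00578 CPM (SD, n = 3 each), a log2 difference of 1.34 (SE 0.163, adjusted p = 0.000122 by edgeR's quasi-likelihood test), and it was called under all 13 alternative settings. In NO its counts were 33, 24 and 57 in HEK WT and 199, 64 and 70 in HEK UL1 KO, or 0.850 ± 0.110 against 1.65 ± 0.145 CPM (SD, n = 3 each). The CPM of both groups did not overlap (exact permutation p = 0.1, the smallest that 3 against 3 allows), but the log2 difference of 0.95 (SE 0.290) did not pass edgeR's quasi-likelihood test at an adjusted p = 0.128. Without HEK WT NO replicate 3 it was 1.04 and passed it, with an adjusted p = 0.0124. No stretch of 75 bases of the SLFN5 transcript occurs in another member. LOC105371932 overlaps the SLFN5 start.

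SLFN13 also counted more in HEK UL1 KO. In CN it had 10, 5 and 2 counts in HEK WT and 76, 89 and 64 in HEK UL1 KO, and in NO 7, 7 and 37 against 126, 73 and 66. The groups did not overlap in either fraction. By edgeR's quasi-likelihood test the log2 difference was 3.97 in CN (SE 0.350, adjusted p = 1.57e-05) and 2.00 in NO (SE 0.413, adjusted p = 0.0308). In NO it was not called with total counts in place of TMM, nor without HEK WT NO replicate 1, HEK WT NO replicate 2 or HEK UL1 KO NO replicate 2, where the adjusted p was 0.688, 0.120, 0.0758 and 0.0821. SLFN13 passed the low-count filter in both fractions only through its HEK UL1 KO libraries, since none of the HEK WT libraries in CN and 1 of 3 in NO reached the filter's level, so its calls hold only given that it was high in HEK UL1 KO.

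SLFN11 and SLFN13 share sequence, which bears on these counts. Of the 5065 stretches of 75 bases, the length of the reads, in the SLFN11 transcript, 476 (9.40%) also occur in SLFN13. SLFN13 counts were 9.54, 8.73 and 9.48% of SLFN11 counts in the CN libraries of HEK UL1 KO, close to that share. If reads from the shared stretches were counted for both genes, SLFN11 alone would give SLFN13 74.9, 95.9 and 63.4 counts in these libraries, where 76, 89 and 64 were deposited. That leaves 1, 0 and 1 counts for SLFN13, against 10, 5 and 2 in HEK WT. Under that assumption the deposited CN counts of SLFN13 hold no rise beyond the shared reads. The near match holds for stretches of 75 bases only. With 63 bases, SLFN11 would give 109, 120 and 110% of the SLFN13 counts deposited in these libraries. With 50 bases it would give 127, 139 and 128%, which is more than was deposited. In NO the subtraction left 33, 42 and 21 counts in HEK UL1 KO and 6, 6 and 32 in HEK WT, and the log2 difference dropped to 0.86 (SE 0.521, adjusted p = 0.420 by edgeR's quasi-likelihood test). How reads with several alignments were counted is not given in the sources used here. Of the rRNA genes, which also have several copies, 16 of 17 5S genes had the same count as another copy in every library, and 0 of 7 45S and 0 of 7 5.8S genes did.

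**Figure D2:**
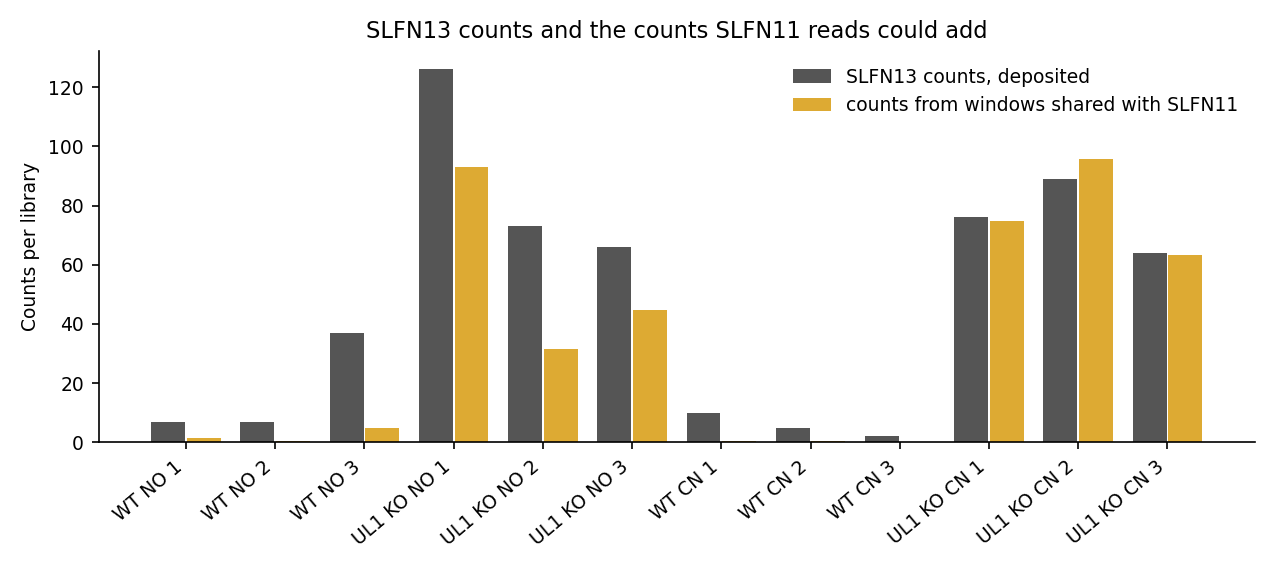
Deposited SLFN13 counts (grey) and the counts that the 75-base stretches shared with SLFN11 would give (yellow) in each of the 12 libraries; the vertical axis is counts per library. Both bars are of nearly the same height in the 3 UL1 KO CN libraries, where 76, 89 and 64 counts stand beside 74.9, 95.9 and 63.4. Stretches of 63 or 50 bases, not drawn, would give more than the deposited counts in these libraries.

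SLFN12, SLFN12L and SLFN14 had low counts in both lines. SLFN12L counted 34, 27 and 16 in CN of HEK WT and 37, 40 and 36 in HEK UL1 KO, and its log2 difference of 0.81 (SE 0.286) passed edgeR's quasi-likelihood test narrowly, with an adjusted p = 0.0451. It passed under 4 of 13 alternatives, with adjusted p from 0.0231 to 0.238 by edgeR or DESeq2, and of the fits that left out 1 CN library it passed only without HEK WT replicate 1. In NO it counted 33, 30 and 148 against 245, 110 and 67, with overlapping groups in CPM and a log2 difference of 0.54 (adjusted p = 0.474 by edgeR's quasi-likelihood test), which was 1.25 with an adjusted p = 0.00695 without HEK WT NO replicate 3. The pseudogenes E2F3P1 and TAF5LP1 lie inside SLFN12L. SLFN12 had 4, 7 and 1 counts in CN of HEK WT and 8, 10 and 10 in HEK UL1 KO, and SLFN14 had 9, 7 and 4 against 9, 8 and 8. Both fell below the low-count filter there and were not tested in the main fit. In CPM the groups did not overlap for SLFN12 (exact permutation p = 0.1, the smallest that 3 against 3 allows), and overlapped for SLFN14. Without the filter their log2 differences were 1.43 (SE 0.610) and 0.54 (SE 0.559). Neither passed edgeR's quasi-likelihood test (adjusted p = 0.0863 and 0.572), which at these counts does not show equal levels. In NO, SLFN12 counted 18, 10 and 40 in HEK WT and 81, 40 and 24 in HEK UL1 KO. SLFN14 counted 10, 10 and 30 in HEK WT and 66, 22 and 20 in HEK UL1 KO. In CPM the groups overlapped for both genes, and the log2 differences of 0.58 and 0.53 did not pass edgeR's quasi-likelihood test (adjusted p = 0.446 and 0.499).

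Of the 5 members besides SLFN11, SLFN5 and SLFN12L reached the filter's level in all CN libraries and were called higher, where 15.6% of 27234 genes tested were higher and 37.9% were called in either direction. SLFN13 was called too, but entered through HEK UL1 KO, and the other 2 were not tested, so nothing is read from the count. In NO, 5 could be tested and SLFN13 alone was called higher, where 0.365% of 34836 genes were higher, 0.574% lower and 0.939% called in either direction. SLFN12, SLFN13 and SLFN14 passed the filter there only through HEK UL1 KO, so this count is not read against that share either. With total counts in place of TMM, the calls over all genes moved from 4253 higher and 6070 lower to 3697 and 1724 in CN, and from 127 and 200 to 7 and 3 in NO. The median log2 difference of all genes was then 0.24 in CN and 0.40 in NO. Without HEK WT NO replicate 3, 9133 genes were called in NO in place of 327. Reads of genes that a kidney line is not known to use were also highest, among HEK WT NO, in this library. The summed level of 408 olfactory receptor genes was 62.4, 49.6 and 93.1 CPM in NO of HEK WT and 82.0, 78.2 and 79.2 in HEK UL1 KO, and in CN it was 21.3, 23.0 and 14.8 against 23.4, 24.5 and 28.8. The part of that level in the counts of the low Schlafen genes was not tested.

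The size of the genotype difference was set side by side in both fractions in 1 fit over all 12 libraries. For SLFN11 the log2 difference in NO minus that in CN was -3.68, or -2.80 without HEK WT NO replicate 3, which is given as a description. None of the other 5 members was called for a fraction-dependent difference by edgeR's quasi-likelihood test (0 of 5, adjusted p = 1.00 for each), where 0.114% of 37806 genes were (0.0846% higher and 0.0291% lower). At an unadjusted p under 0.05 the count was 1, SLFN13, which shares sequence with SLFN11, and DESeq2 called 0.

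Between the fractions, the members parted into those with more and those with fewer counts in NO. This comparison is of shares within each fraction and gives no amount per cell. Its CPM were scaled over the NO and CN libraries of the line together, so they differ from the levels given above. In HEK UL1 KO, SLFN11 had 8.53 ± 1.499 CPM in NO and 16.7 ± 2.36 CPM in CN (SD, n = 3 each), a log2 difference of -0.97 (SE 0.173, adjusted p = 0.000514 by edgeR's quasi-likelihood test). With total counts it was -0.21 and was not called (adjusted p = 0.387). SLFN12, SLFN12L and SLFN14 were higher in NO, with log2 differences of 1.84 (SE 0.310), 1.36 (SE 0.215) and 1.54 (SE 0.295) and adjusted p = 0.000370, 0.000267 and 0.000776 by the same edgeR test. These 3 were called higher in NO under every alternative run for them. SLFN12L reached the filter's level in every library, while SLFN12 reached it in 1 of 3 CN libraries and SLFN14 in 0, so both passed through the NO libraries, where they are high. SLFN5 was lower in NO by 0.43 on the log2 scale (adjusted p = 0.0265 by edgeR's quasi-likelihood test), a call that was kept under 6 of 13 alternatives and whose sign turned to 0.34 with total counts. Without HEK UL1 KO NO replicate 2 it was -0.28 and was not called (adjusted p = 0.146). SLFN13 stood at -0.22 (adjusted p = 0.310 by edgeR's quasi-likelihood test) and turned to 0.52 with total counts. With the counts that sequence shared with SLFN11 could give taken off, its CN libraries were left with 1, 0 and 1 counts, too few for a fold. All 6 were tested, with 3 called higher and 2 lower, where 40.7% of 34468 genes were higher and 35.6% lower in NO. Since SLFN12 and SLFN14 entered through NO, the count of higher members is not read against that share. With total counts, 18471 genes were higher and 825 lower in place of 14023 and 12264, and the median of all genes was 0.79.

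In HEK WT the same 3 members were higher in NO. The log2 difference was 2.89 for SLFN12 (SE 0.624, adjusted p = 0.00563), 1.84 for SLFN12L (SE 0.530, adjusted p = 0.0163) and 1.74 for SLFN14 (SE 0.513, adjusted p = 0.0177) by edgeR's quasi-likelihood test, where 31.9% of 29340 genes were higher. SLFN12 and SLFN14 reached the filter's level in 0 of 3 CN libraries and passed through NO, so their calls are not read against that share. SLFN12 was called under each of 12 alternatives, while SLFN12L and SLFN14 were not called without HEK WT NO replicate 3 (adjusted p = 0.0657 and 0.0840), and SLFN14 was also not called without HEK WT CN replicate 2 or 3 (adjusted p = 0.0620 and 0.0733). By the same edgeR test, neither was called with total counts (adjusted p = 0.0564 and 0.0583) or with the replicate block (adjusted p = 0.0794 and 0.0848). SLFN5 stood at 0.12 (adjusted p = 0.762), and SLFN11 and SLFN13 were below the filter. With total counts, 6387 genes were higher and 606 lower in place of 9355 and 6139, and the median of all genes was 0.37. The olfactory receptor levels given above, 49.6 to 93.1 CPM in NO and 14.8 to 28.8 in CN, were scaled within each fraction. They therefore give no direct comparison of NO with CN. The part of these reads in the NO against CN differences of the low members was not tested.

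**Figure D3:**
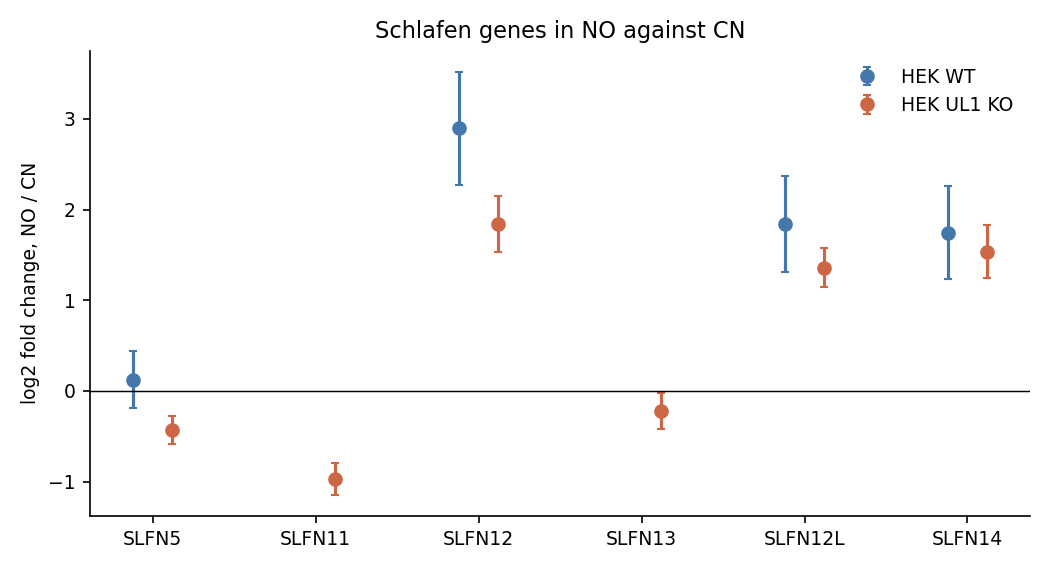
Log2 difference of NO against CN, with SE, for the members that passed the low-count filter in HEK WT (blue) and HEK UL1 KO (orange). SLFN12, SLFN12L and SLFN14 lie above 0 in both lines, while SLFN11 in HEK UL1 KO lies at -0.97; with total counts the values of SLFN5 and SLFN13 in HEK UL1 KO turn positive.

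The genes around the cluster were examined up to 500 kb on either side. The annotation lists 56 such genes, of which 51 are in the tables and 26 could be tested in CN. HEK UL1 KO had 6 of these (23.1%) higher and 1 (3.85%) lower, where 15.6% of all genes were higher and 22.3% lower, and their median log2 difference was 0.51, where that of all genes was 0.04. UNC45B, the nearest tested protein-coding gene before the cluster and a myosin chaperone, stood at 0.60 and did not pass edgeR's quasi-likelihood test (adjusted p = 0.152). RASL10B, a small GTPase gene beyond AP2B1, had the largest neighbour difference, 2.22 (SE 0.247), and was chosen for mention after its value was seen. It was the 1 gene of the 6 that would not have passed the filter on its HEK WT libraries alone. RFFL, a ubiquitin ligase gene, rose by 0.63 (SE 0.111), and the readthrough RAD51L3-RFFL, which overlaps it, by 0.81 (SE 0.242). LOC105371742 and the pseudogene LRRC37A8P rose by 1.13 and 1.03. RPL39P32, a ribosomal protein pseudogene whose reads may be shared with other copies, fell by 1.16. In NO, 0 of 34 neighbours were called by edgeR's quasi-likelihood test, 8 had an unadjusted p under 0.05, and DESeq2 called 1.

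**Figure D4:**
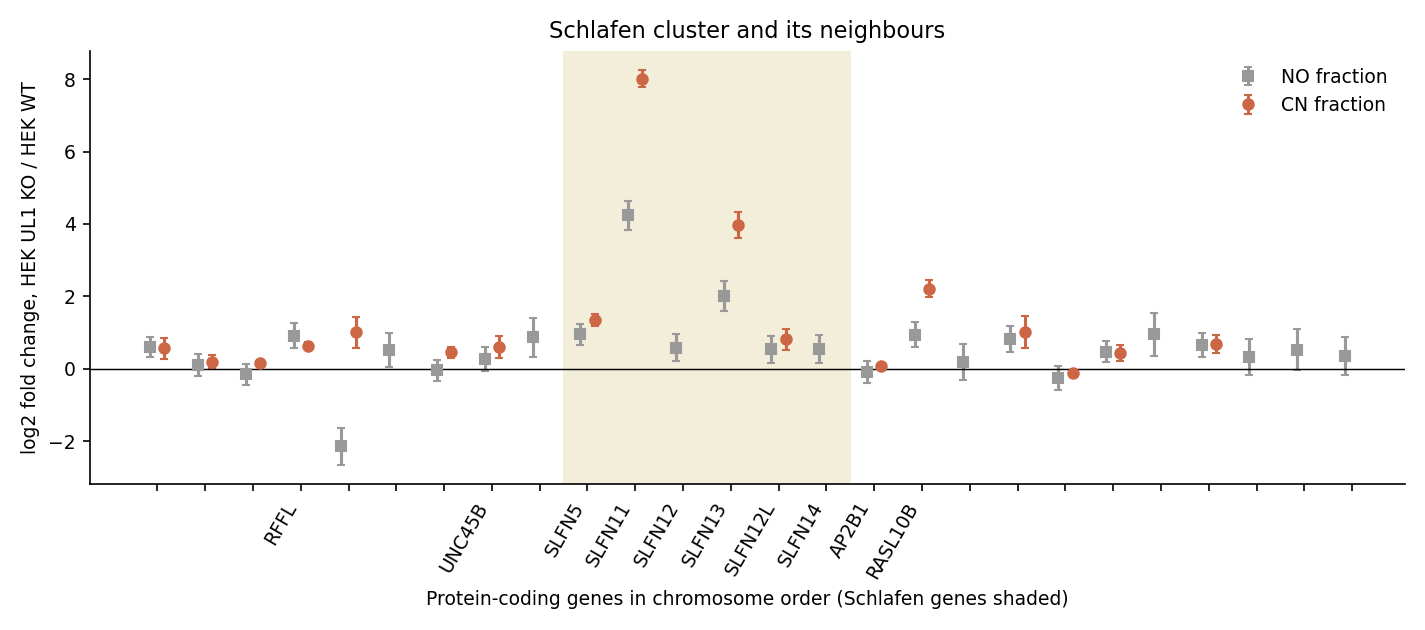
Log2 difference of HEK UL1 KO against HEK WT, with SE, for the genes of the cluster (shaded) and most protein-coding genes of its flanks that passed the low-count filter, in chromosome order but not to scale and labelled where the text names them, in NO (grey squares) and CN (orange circles). SLFN11 stands at 8.02 in CN and 4.24 in NO, while UNC45B before the cluster stands at 0.60 in CN and RASL10B after it at 2.22.

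Genes tied to the Schlafen family by pathway were read from the same fits. Interferon-stimulated genes, the class to which several Schlafen genes belong, were examined first. Of 42 listed, 30 could be tested in CN, 11 were higher and 2 lower, where 15.6% of all genes were higher and 22.3% lower, with a median log2 difference of 0.51. Of the 11, 6 (IFI6, MX1, OAS2, IFIH1, IFITM2 and IFITM3) would not have passed the filter on their HEK WT libraries alone, so the count is not read against that share. OAS3, a sensor of double-stranded RNA, rose by 1.82 (SE 0.266, adjusted p = 0.000414 by edgeR's quasi-likelihood test). PARP9 and DTX3L, which form a complex in interferon and DNA damage signalling, rose by 1.59 (SE 0.197) and 1.19 (SE 0.204), and EPSTI1 rose by 0.99 (SE 0.212). HERC5, the ligase that attaches ISG15, fell by 0.53 and IFIT5 by 0.47, and IFIT5 was called under 3 of 13 alternatives. Levels were low, with OAS3 at 1.20 ± 0.200 against 0.338 ± 0.131 CPM (SD, n = 3 each). In NO, 0 of 37 were called by edgeR's quasi-likelihood test, 6 had an unadjusted p under 0.05, and DESeq2 called 1.

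Among 10 ETS factors, 4 were higher and 1 lower in CN, where 15.6% of all genes were higher and 22.3% lower, and ERG would not have passed the filter on its HEK WT libraries alone. FLI1 counted 52, 78 and 18 in HEK WT and 375, 351 and 323 in HEK UL1 KO, with no overlap, and rose by 3.09 on the log2 scale (SE 0.307, adjusted p = 3.43e-05 by edgeR's quasi-likelihood test). ETS1 rose by 1.87 (SE 0.305), ERG by 1.56 (SE 0.400) and ETV5 by 0.74 (SE 0.201), while GABPA, a broadly used ETS factor of housekeeping promoters, fell by 0.48 (SE 0.0793). In NO, FLI1 counted 93, 75 and 265 in HEK WT and 748, 321 and 308 in HEK UL1 KO, a log2 difference of 1.22 that did not pass edgeR's quasi-likelihood test (SE 0.298, adjusted p = 0.0598). There 0 of 10 factors were called by edgeR, 3 had an unadjusted p under 0.05, and DESeq2 called 1. FLI1 and ERG also mark endothelium, whose other markers PECAM1 and CDH5 together had 0.215 to 0.730 CPM in CN of HEK WT and 0.643 to 0.777 in HEK UL1 KO, and 1.89 to 3.66 and 3.07 to 4.80 CPM in NO. The part of such markers in the ETS counts was not tested.

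Of 14 chromatin silencing enzymes tested in CN, 5 were lower and 1 higher, where 22.3% of all genes were lower and 15.6% higher, with a median of -0.07. HDAC1, a histone deacetylase, fell by 0.99 (SE 0.108) from 11.9 ± 1.60 to 5.99 ± 0.535 CPM (SD, n = 3 each). EHMT1, an H3K9 methyltransferase, fell by 0.47 (SE 0.0926), and UHRF1, which guides DNA methylation to replicated DNA, by 0.40 (SE 0.0998). DNMT3B, a de novo DNA methyltransferase, rose by 0.49 (SE 0.101). With total counts 2 of these 14 were called, 1 in each direction. In NO, 0 of 14 were called by edgeR's quasi-likelihood test, 1 had an unadjusted p under 0.05, and DESeq2 called 1.

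Of 24 genes of the replication stress response and of SLFN11's known partners, 9 (37.5%) were lower and 2 higher in CN, where 22.3% of all genes were lower and 15.6% higher, with a median of -0.21. RPA2, the RPA subunit phosphorylated upon replication stress, fell by 1.07 (SE 0.0730), from 10.1 ± 0.221 to 4.81 ± 0.0372 CPM (SD, n = 3 each). ATR, the kinase of this response, fell by 0.71 (SE 0.0878), and CUL4B, a cullin of the ligase that acts with SLFN11 on CDT1, by 0.95 (SE 0.0744). Its paralog CUL4A rose by 0.54 (SE 0.0709), and MCM3, a subunit of the replicative helicase, by 0.46 (SE 0.0658). With total counts 3 were lower and 2 higher. In NO, 0 of 24 were called by edgeR's quasi-likelihood test, 7 had an unadjusted p under 0.05, and DESeq2 called 1.

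**Figure D5:**
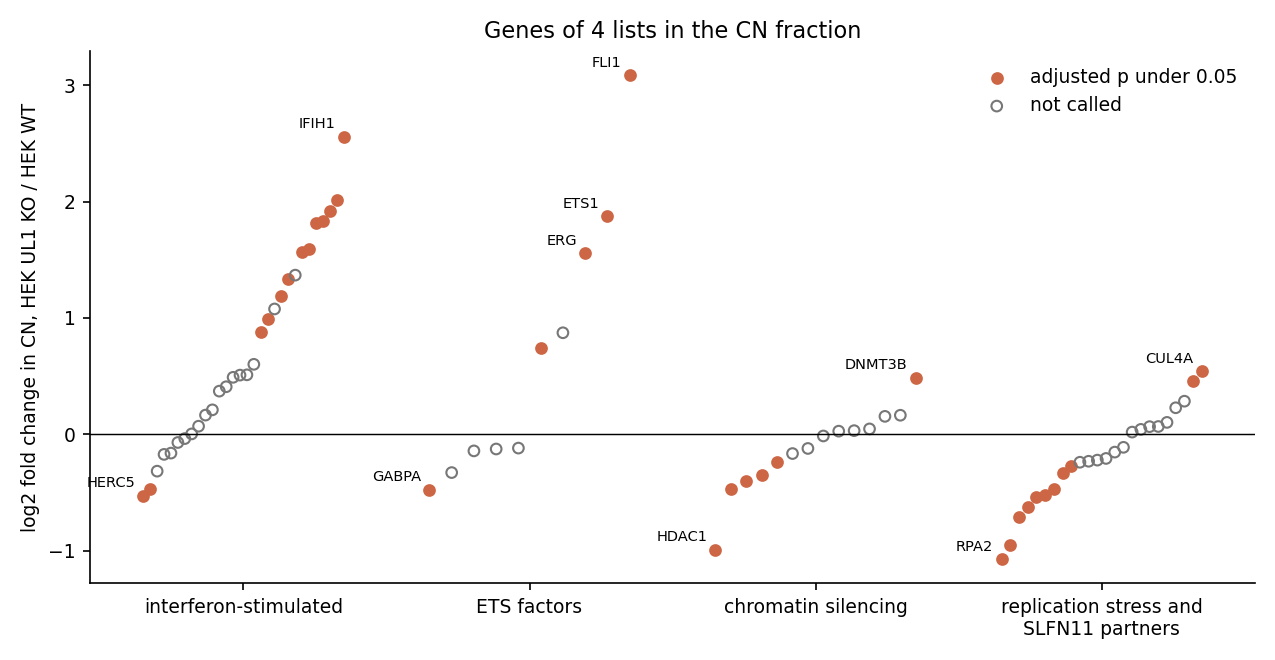
Log2 difference of HEK UL1 KO against HEK WT in CN for the tested genes of 4 lists, sorted within each list; filled orange points had an adjusted p under 0.05 by edgeR's quasi-likelihood test and open points did not. FLI1 at 3.09 is the highest point and RPA2 at -1.07 the lowest.

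Transfer RNA genes were examined because SLFN11 is known to cleave the leucine and serine tRNAs, which have a long variable arm. Of 87 such entries 55 could be tested in CN, and 39 (70.9%) were lower in HEK UL1 KO and 0 higher, where 22.3% of all genes were lower and 15.6% higher, with a median of -1.26. The 87 include repeated entries of the same gene, such as TRL-AAG3-1_1 to TRL-AAG3-1_6 beside TRL-AAG3-1. These counts are therefore of entries and not of distinct genes. The other nuclear tRNA genes gave 158 of 233 (67.8%) lower and 0 higher, with a median of -1.18, and the difference between both classes was not tested. Of these, 15 and 50 would not have passed the filter on their HEK UL1 KO libraries alone. In NO, 0 of 10 leucine and serine tRNA genes were called by edgeR's quasi-likelihood test, with 9 at an unadjusted p under 0.05 and 0 called by DESeq2. DESeq2 gave an adjusted p for only 1 of these 10, so its 0 says little of the class. Of the other nuclear tRNA genes there, 7 of 109 (6.42%) were lower by edgeR, where 0.574% of all genes were. Of the 7, 2 would not have passed the filter on their HEK UL1 KO libraries alone. The count is therefore not read against that share. At an unadjusted p under 0.05 by edgeR, 55 of the 109 were lower. DESeq2 had 15 lower and 27 not called, and gave the rest no adjusted p. By edgeR without HEK WT NO replicate 3, 63 of the other nuclear tRNA genes were lower. Mature tRNAs are close to the reads in length and their copies share sequence, so single genes of these classes are uncertain. Of the partners of SLFN12, whose RNase is switched on by binding the phosphodiesterase PDE3A, PDE3B fell by 0.54 (SE 0.0888) in CN and PDE3A itself was not called, with 1 of 3 listed partners called in all. In NO, 0 of 3 were called by edgeR's quasi-likelihood test, 1 had an unadjusted p under 0.05, and DESeq2 called 1.

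Genes whose levels followed SLFN11 most closely over the 12 libraries were sought among 22260 genes, by Pearson's r of log2(CPM + 0.5). The points share 2 lines and 2 fractions, so r describes these libraries only. The 5 highest were NALF1 (r = 0.996), an auxiliary factor of the NALCN sodium leak channel, NCKAP5-AS2 (r = 0.996), an antisense RNA whose reads cannot be told from those of its partner without strand, MIR4435-2HG (r = 0.993), a lncRNA, ZNF718 (r = 0.992), a zinc finger gene, and LYPD1 (r = 0.992), a gene of the Ly6 family. NALF1 had 2.63 ± 0.202 CPM in CN of HEK WT and 26.7 ± 0.815 in HEK UL1 KO, and in NO 7.07 ± 1.77 and 25.5 ± 3.54 (SD, n = 3 each). ZNF718 had 0.327 ± 0.0585 and 14.4 ± 1.30 CPM in CN, and 1.24 ± 0.139 and 9.66 ± 3.07 in NO (SD, n = 3 each). With log2(CPM + 0.1), ERAP2 and ZFP82 took the places of ZNF718 and LYPD1 among the 5. Of the family, SLFN13 had r = 0.976, SLFN5 0.961, SLFN12L 0.391, SLFN12 0.335 and SLFN14 0.306. The SLFN13 counts may include reads shared with SLFN11, and its r was not computed without them.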

How the data were processed

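RNA-seq of 12 libraries was read from both tables of raw counts per gene that the authors deposited, 1 per fraction. Per the study's methods and the submitters' processing notes, single reads of 75 bases were trimmed with cutadapt 3.7, aligned to GRCh38 with STAR 2.7.8 (up to 20 alignments per read kept) and counted with featureCounts. How reads with several alignments were counted, and whether strand was used, is not given in the sources used here. Such reads can raise a gene through its paralog.

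Each comparison was fitted over the whole table with edgeR 4.0.16 (R 4.3.3): filterByExpr by group, TMM scaling, the quasi-likelihood test and Benjamini-Hochberg adjustment over all genes tested, called under 0.05. The script was tested on simulated data. CPM values are TMM-normalised, with the factors set within each comparison. The CPM of a library thus differ between comparisons, and those of the genotype comparisons are not on the same scale in NO and CN. Library totals were 37141666 to 104040073 counts, so a gene at a few counts carries a large counting error. SLFN11 was given no test between genotypes. Alternatives were DESeq2 1.42.0 (default settings), total counts, TMM without rRNA genes, 1 fit of all 12 libraries, a replicate block, no filter on low counts or a floor of 10 counts per library, and leaving out each library in turn. The subtraction of SLFN13 reads shared with SLFN11, over stretches of 75, 63 and 50 bases of the GENCODE transcripts, was chosen after seeing the data.

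The members and lists were chosen with earlier results of these data known. Named were all members, HNRNPUL1, from each list the top 4 risers and top 3 fallers in CN by log2 difference, among called genes that averaged 50 counts or more, the nearest tested protein-coding neighbour on each side, and the 5 genes most like SLFN11. Some genes that the rule or the lists hold are not reported here. Genes named outside this rule are marked as such. Symbols and promoters came from RefSeq (GRCh38.p14). RIGI is listed in the tables under an older symbol.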

Additional observations from a re-analysis of the deposited data

How the results depend on the processing

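With total counts, 0 Schlafen genes besides SLFN11 were called between genotypes in NO in place of 1, and between fractions in HEK WT 1 was called in place of 3. Requiring at least 10 counts in every library gave 0, 1 and, between fractions in HEK UL1 KO, 2 in place of 5. All 12 libraries in 1 fit gave 2 in NO and 5 between fractions in HEK WT, no filter gave 5 in the latter, and the SLFN13 subtraction gave 0 in NO with each of its 3 lengths. Leaving out 1 library gave 0 to 3 calls in NO, with 3 without HEK WT NO replicate 3, 2 to 3 in CN, and 1 to 4 between fractions in HEK WT, with 1 without HEK WT NO replicate 3.

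For the direction of single genes, SLFN5 in HEK UL1 KO went from -0.43 between NO and CN to 0.34 with total counts and 0.014 with at least 10 counts in every library. SLFN13 went from -0.22 to 0.52 with total counts, and, with reads shared over 75 or 63 bases taken off, to fitted values of 5.03 and 7.63 that rest on 2 and 0 summed CN counts, depend on the prior count and are no folds. These turns came with the change of scaling, filter or subtraction named, and what drove them was not tested. SLFN11 in HEK UL1 KO kept its sign between fractions and ranged from -1.20 to -0.21.

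In CN, the lists' calls were, with total counts, 0 SLFN12 partners (in place of 1), 2 silencing enzymes (6), 5 replication genes (11) and 25 leucine and serine tRNAs (39). At least 10 counts in every library gave 7 interferon-stimulated genes (13) and 18 of those tRNAs. All 12 libraries in 1 fit gave 2 ETS factors (5), 0 SLFN12 partners, 1 silencing enzyme, 3 neighbours (7) and 3 replication genes. DESeq2 gave 2 SLFN12 partners. The tRNA count was 22 without HEK UL1 KO CN replicate 3 and at most 44 without another library. In NO, where each list but the other nuclear tRNAs had 0 calls by edgeR, DESeq2 gave 1 for every such list except the leucine and serine tRNAs. Of those tRNAs, only 1 of the 10 tested had an adjusted p by DESeq2. No filter gave 1 ETS factor, 1 silencing enzyme, 2 interferon-stimulated genes, 3 neighbours, 1 replication gene and 4 tRNAs. TMM without rRNA genes gave 1 silencing enzyme. All 12 libraries in 1 fit gave 1 ETS factor, 1 silencing enzyme, 4 interferon-stimulated genes, 3 neighbours, 2 replication genes and 4 tRNAs. Leaving out 1 library gave 0 to 4 ETS factors, 0 to 1 SLFN12 partner, 0 to 5 silencing enzymes, 0 to 8 interferon-stimulated genes, 0 to 9 neighbours, 0 to 11 replication genes and 0 to 10 tRNAs, each highest without HEK WT NO replicate 3. The other nuclear tRNA genes went from 158 lower in CN to 91 with total counts, 90 with all 12 libraries in 1 fit, 104 with the replicate block and 99 to 151 with 1 library left out, lowest without HEK UL1 KO CN replicate 3, and from 7 lower in NO to 0 with total counts, 41 with all 12 libraries, 12 with the block and 2 to 63 with 1 library left out. The cause of these moves was not tested. Of the 29 named genes outside the family, 27 were called in CN, and 24 to 27 with 1 library left out, 21 with total counts and 13 with all 12 libraries in 1 fit, none with a turned sign. RAD51L3-RFFL was called in CN under 8 of 13 alternatives, and HNRNPUL1 in NO under 12, total counts being the exception.

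Replicates share numbers across groups. The deviations of same-numbered libraries correlated at r from -0.48 to -0.04 in the 4 comparisons. They did not move in the same direction, but a negative r does not show that the samples are unpaired. Whether the numbers pair the samples therefore stays unknown. With the replicate block, 1 Schlafen gene was called between fractions in HEK WT in place of 3, 28 leucine and serine tRNA genes in CN in place of 39, and over all genes 8438 in CN in place of 10323 and 225 in NO in place of 327.

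Depth limits SLFN12 and SLFN14 in CN, with at most 10 counts per library. Limits on the rest include the spread of only 3 libraries per group and, in NO, that of HEK WT replicate 3. The scaling, the sequence shared by SLFN11 and SLFN13, and the entry of low members through the group where they are high are others.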
